A study of Homo sapiens with 3 samples.

Results

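The peaks described here are short EZH2-bound regions inside genes and away from gene starts, without PHF13 at the same place. They came from chromatin immunoprecipitation followed by sequencing (ChIP-seq) in PANC-1, an established human cell line from a pancreatic ductal carcinoma. Of the 21639 EZH2 peaks, 19980 were at most 1000 bp wide and 17875 of these shared no base with a PHF13 peak. In 10203 of the latter the summit, the position of highest coverage, was more than 5000 bp from every transcription start site (TSS) in GENCODE. In 5143 the summit also lay inside an annotated transcript. These 5143 peaks (23.8% of the EZH2 list) are called gene-body peaks below, and the remaining 5060 distal narrow peaks are called intergenic. Width, the absence of PHF13 and the distance to a TSS chose the peaks and are therefore not results.

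The series described here held 3 of the study's libraries, from wild-type PANC-1 cells with no treatment listed. There was 1 each for an EZH2 antibody, a PHF13 antibody made for the work, and input chromatin without antibody. All 3 shared the line, the culture medium and a double crosslink with EGS and formaldehyde. The label gives pancreas as the tissue, but the material is a cultured carcinoma line, and peak lists hold no expression by which its identity could be checked. Since each antibody had a single library, no replicate error can be given. Intervals in parentheses are 95% intervals (Wilson for shares, exact binomial for medians) that cover counting error only, and no p-values are given. Shares are set beside the same measure at every 10 kb of the genome under the same rule of position, which gave 117610 gene-body positions (the position grid).

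EZH2 is the methyltransferase of Polycomb repressive complex 2 (PRC2), which places the H3K27me3 mark on nucleosomes of silent genes. In mammalian cells PRC2 is best known at CpG islands, stretches where the dinucleotide CG has not been lost to methylation and decay, and most of these lie at gene starts. Islands also occur inside genes and in coding exons, and genes of development, ion channels and cell adhesion are among the classic PRC2 targets. PHF13 is a PHD-finger protein that reads methylated histone H3.

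Summit sequences of 8 gene-body peaks show the range of base composition that the results below turn on. Each runs from 75 bases before to 75 bases after the summit, on the plus strand of hg19 (GRCh37), with every CG in capitals. The strongest single-copy peaks in coding exons without a UTR in this stretch came from APBB1IP (chr10:26855991-26856141), an adaptor that links Rap1 to integrin activation, GRIK4 (chr11:120856679-120856829), a kainate receptor subunit, and SPTBN4 (chr19:41025264-41025414), a spectrin of axon initial segments. They held 20, 24 and 9 CG dinucleotides.
APBB1IP: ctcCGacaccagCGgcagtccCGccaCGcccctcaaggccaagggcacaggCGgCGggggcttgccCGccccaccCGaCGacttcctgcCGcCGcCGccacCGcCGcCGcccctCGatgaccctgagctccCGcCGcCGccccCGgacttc
GRIK4: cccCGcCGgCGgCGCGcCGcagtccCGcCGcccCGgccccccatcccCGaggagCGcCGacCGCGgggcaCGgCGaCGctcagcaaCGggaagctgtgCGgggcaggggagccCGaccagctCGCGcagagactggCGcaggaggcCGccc
SPTBN4: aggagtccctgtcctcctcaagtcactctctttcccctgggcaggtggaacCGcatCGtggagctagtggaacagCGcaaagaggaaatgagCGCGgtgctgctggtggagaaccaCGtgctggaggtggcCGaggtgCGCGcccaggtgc

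The strongest intronic peaks whose CpG ratio (observed over expected) reached 0.6 are shown next. They lay in a protein-coding gene listed by its identifier ENSG00000284762 (intron 3 of 23, chr5:76476262-76476412), in KCNN3 (intron 3 of 7, chr1:154733235-154733385), a calcium-activated potassium channel on the minus strand, and in UNC5A (intron 1 of 14, chr5:176244749-176244899), a netrin receptor. They held 16, 19 and 24 CG dinucleotides.
ENSG00000284762: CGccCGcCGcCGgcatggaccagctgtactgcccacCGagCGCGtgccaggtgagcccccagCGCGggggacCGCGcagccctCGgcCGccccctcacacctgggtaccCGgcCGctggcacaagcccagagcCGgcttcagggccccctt
KCNN3: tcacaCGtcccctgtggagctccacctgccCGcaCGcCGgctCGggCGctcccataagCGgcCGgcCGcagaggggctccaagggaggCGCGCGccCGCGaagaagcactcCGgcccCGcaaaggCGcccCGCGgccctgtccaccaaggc
UNC5A: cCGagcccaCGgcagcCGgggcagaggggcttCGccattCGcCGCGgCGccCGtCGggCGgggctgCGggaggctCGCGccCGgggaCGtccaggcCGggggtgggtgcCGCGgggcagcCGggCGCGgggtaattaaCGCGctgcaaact

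Most gene-body peaks lay in sequence poor in CG. As examples, the strongest single-copy intronic peaks with a CpG ratio under 0.3 are shown here. The first lay in NTN1 (intron 2 of 6, chr17:9018582-9018732), which encodes the axon guidance cue netrin-1. The second lay in VWA3A (intron 22 of 33, chr16:22150298-22150448), a gene for a protein with von Willebrand factor A domains. Their −log10 q, 9.91 and 9.82, was far above the gene-body median of 3.26, so they are not typical in strength. The NTN1 stretch held 2 CG dinucleotides and the VWA3A stretch held 0.
NTN1: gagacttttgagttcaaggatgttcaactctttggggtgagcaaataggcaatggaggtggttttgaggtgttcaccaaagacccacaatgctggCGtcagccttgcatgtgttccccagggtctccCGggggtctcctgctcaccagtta
VWA3A: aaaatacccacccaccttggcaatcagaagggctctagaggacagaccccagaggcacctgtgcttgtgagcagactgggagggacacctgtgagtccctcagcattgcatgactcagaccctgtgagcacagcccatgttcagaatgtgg

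Gene-body peaks had a fold enrichment near that of the other narrow EZH2-only peaks. The median peak, 192 bp wide under the limit of the rule, held 21 fragments at its summit (interquartile range 18 to 26) and had a fold enrichment of 3.07 (3.05 to 3.10) over the local background, beside 3.02 (3.0 to 3.04) for intergenic peaks and 3.04 (3.02 to 3.06) for narrow peaks near gene starts. The fragment number and the background, 5.66 fragments at the median, were solved from the deposited fold enrichment and p-value, and 23.6% of the peaks (22.5 to 24.8) sat at the background floor of 4.42 fragments. The median −log10 q was 3.26 (3.19 to 3.34), and values ran from 1.31 to 24.7. Of all EZH2 peaks, 35.8% had a −log10 q of at least 5 and 15.2% of at least 10. Among gene-body peaks these shares were 16.7% (861 peaks) and 1.07% (55 peaks). The whole list is not a like comparison, because the rule left out peaks over 1000 bp wide. Of the EZH2-only peaks of that width, 99.5% reached 5 and 88.0% reached 10. Intergenic peaks reached a −log10 q of 5 in 19.7% (18.7 to 20.9) and EZH2-only narrow peaks near gene starts in 32.7% (31.7 to 33.8). The plot of peak strength against the −log10 q limit shows these classes, with the gene-body curve lowest from a limit of 1.5 upwards. Weak peaks are those most easily gained or lost with depth, so single weak peaks named below carry less weight than the counts.

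**Figure D1:**
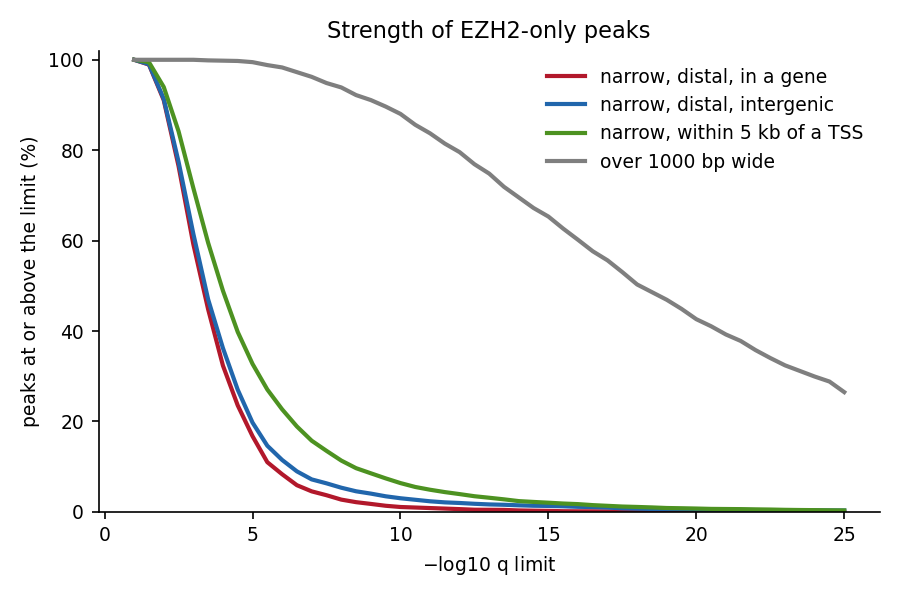
Share of EZH2-only peaks (y axis, %) whose −log10 q is at or above a limit (x axis), for gene-body peaks (red), intergenic distal peaks (blue), narrow peaks within 5 kb of a TSS (green) and peaks over 1000 bp wide (grey). Of the gene-body peaks 16.7% reach 5, of the intergenic peaks 19.7% and of those near gene starts 32.7%.

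The strongest single-copy peaks came from 8 protein-coding genes of different kinds. The peak in ENSG00000284762 (chr5:76475917-76476834) held 89 fragments over a background of 20.5 (fold enrichment 4.18, −log10 q 24.7). In KCNN3 (chr1:154732891-154733476) 70 fragments stood over 13.2 (fold enrichment 5.02, −log10 q 24). The UNC5A peak (chr5:176244333-176245328) held 87 fragments over 21.6, with a fold enrichment of 3.90. These peaks had GC contents of 66.4%, 66.2% and 75.8% in the 500 bp at the summit, far above the median gene-body peak. Next in order were SLC25A48, a mitochondrial carrier gene (fold enrichment 3.51), DUSP15, a phosphatase gene with the summit in a UTR (3.57), KCNQ1, a potassium channel of heart and epithelia (3.32), the APBB1IP coding exon (4.85) and FGF13, an intracellular partner of sodium channels (4.37). In 7 of these 8 the CpG ratio was at least 0.6, between 0.728 and 0.972, and KCNQ1 was the exception at 0.344. Peaks in 5 of the 8 genes had another EZH2 summit within 1000 bp: ENSG00000284762 at 719 bp, KCNN3 at 485 bp, SLC25A48 at 674 bp, APBB1IP at 464 bp and FGF13 at 847 bp.

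Several of these stood close to a limit of the rule. UNC5A, at 996 bp, and FGF13, at 988 bp, were the widest gene-body peaks, and the next wider EZH2-only distal peaks in genes measured 1015 bp (fold enrichment 3.06) and 1020 bp (3.37), in the lncRNA genes ENSG00000236948 and ENSG00000260573. APBB1IP lay 5194 bp from the nearest TSS. The peaks nearest to the distance limit on the inside were in CAPN8 (5002 bp, fold enrichment 3.50) and MAGI2 (5004 bp, 3.69). On the outside were peaks in LINC01682 and PRKACB, both at 5000 bp, with fold enrichments of 2.50 and 3.14. The smallest gaps to a PHF13 peak were 7 bp, in SLC44A5, and 10 bp, in LINC00210.

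Nearly all of these peaks were intronic. The summit lay in an intron of every overlapping transcript in 4862 peaks (94.5%, 93.9 to 95.1) and in an exon in 281 (5.46%, 4.88 to 6.12), against 4.08% (3.97 to 4.19) of the position grid. Coding sequence accounted for 100 peaks (1.94%, 1.6 to 2.36), which is 2.02 times the grid share of 0.963%. UTR positions, at 1.94%, stood near the grid share of 2.07%. Exons of non-coding transcripts held 96 peaks (1.87%, against 1.26% of the grid). The excess of exons moved with base composition. In windows with a GC content below 40% the exonic share was 2.50% (1.59 to 3.92) against 3.63% of the grid, from 40% to below 50% it was 4.39% against 3.77%, from 50% to below 60% it was 6.85% against 6.64%, and from 60% upwards it was 15.1% (11.4 to 19.6) against 16.9%. In each of the 4 GC classes the interval for peaks covered the grid share. What part GC content plays in the exonic share was not tested further.

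The 100 peaks in coding exons were GC-rich, with a median GC content of 54.0% (51.2 to 56.8), and 18.0% of them (11.7 to 26.7) had a CpG ratio of at least 0.6, against 3.19% of all gene-body peaks. Their hosts were shorter than those of the average gene-body peak, with a median of 68.6 kb against 179 kb. The median coding-exon summit stood 75.9% of the way along its gene (71.7 to 82.7). These values stand beside all gene-body peaks, which were mostly intronic, and not beside coding positions of the grid. Whether they hold for coding sequence in general was not tested. The single-copy coding-exon peaks of highest −log10 q were APBB1IP (15.2), URAD (12.7), a gene of uric acid breakdown, and GRIK4 (10.0). All 3 had a CpG ratio above 0.8, at 0.972, 1.11 and 0.831.

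Along the gene, peaks were spread almost evenly. From the 5′ to the 3′ end, the quintiles of the host gene held 17.5%, 20.5%, 20.5%, 21.5% and 20.03% of the peaks, and 17.1%, 21.4%, 21.4%, 20.7% and 19.3% of the grid. The rule removes the stretch within 5000 bp of the start from the first quintile, in both. The first intron of the canonical transcript held 27.8% (26.4 to 29.1) of the peaks with a numbered intron, against 25.9% of the grid, and the last intron held 12.6% (11.7 to 13.7) against 11.1%.

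Base composition separated the peaks from their surroundings. The median GC content in 500 bp at the summit was 47.0% (46.8 to 47.4), against 39.4% on the grid and 43.0% (42.8 to 43.2) at 1000 bp to either side of the same peaks. The summit window was richer in GC than the mean of its own flanks in 73.8% of the peaks (72.6 to 75), by a median of 3.8 percentage points (3.5 to 4.0). A GC content of at least 50% occurred in 35.5% of the peaks and 9.49% of the grid, a ratio of 3.74. Intergenic peaks, with a median of 47.2% (47.0 to 47.4), did not differ from gene-body peaks beyond the intervals, whereas peaks near gene starts reached 52.8% (52.4 to 53.2). The input coverage was not analysed here, so a preference of the libraries for GC-rich fragments cannot be told apart from EZH2 binding. The plot of GC content shows the gene-body and intergenic curves almost on top of each other, to the right of the flanks and of the grid.

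**Figure D2:**
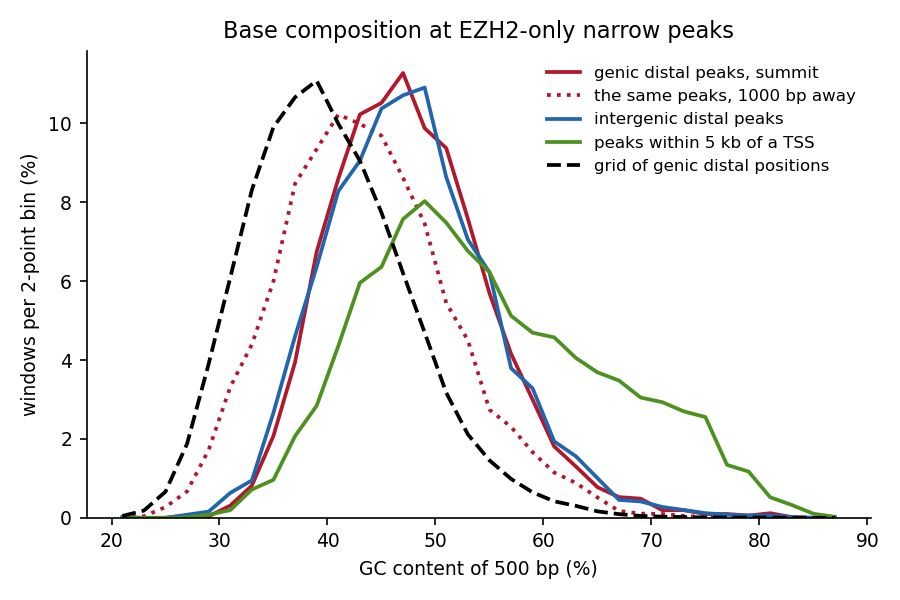
Distribution of GC content in 500 bp windows (x axis, %; y axis, % of windows per 2-point bin) at gene-body summits (solid red), 1000 bp to either side of them (dotted red), at intergenic distal summits (blue), at narrow EZH2-only summits within 5 kb of a TSS (green) and on the position grid (dashed black). The medians are 47.0%, 43.0%, 47.2%, 52.8% and 39.4%.

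CpG-rich sequence was rare among the gene-body peaks. A CpG ratio of at least 0.6, the usual lower limit for a CpG island, was found in 164 (3.19%, 2.74 to 3.71), against 1.18% (1.12 to 1.24) of the grid, 1.92% (1.67 to 2.2) of the flanks, 4.74% (4.19 to 5.36) of intergenic peaks and 28.8% (27.8 to 29.9) of peaks near gene starts. The median ratio was 0.205 (0.201 to 0.210), little above the 0.174 of the grid. These 164 peaks were stronger than the rest, with a median −log10 q of 5.07 (4.44 to 5.59) against 3.26 for all gene-body peaks, and 28 fragments at the summit. Another EZH2 summit lay within 10 kb of 51.8% of them (44.2 to 59.3). Beyond the genes already named, they included peaks in SEC14L5 (CpG ratio 0.718, −log10 q 13.9), NOTCH3, a Notch receptor (0.823, 13.4), KCNA2, a voltage-gated potassium channel (0.668, 12.2), the homeobox gene LHX5 (0.861, 10.2) and, with the highest fold enrichment of the first 5 peaks by −log10 q, ZNF618 (1.29, fold enrichment 5.70), whose 24-mers occurred 7 times in the genome at the median. SEC14L5, NOTCH3 and ZNF618 were picked from the top of this group after their values had been seen.

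Short motifs were searched on both strands in 200 bp at the summit. CGCGCG occurred in 34 peaks (0.661%, 0.474 to 0.923), 4.25 times the share at the flanks (0.156%, 0.0958 to 0.253), and in 0.0665% of the grid. GCNGCNGCN, which any run of GC-rich triplets can match, was found in 6.09% of the peaks (5.47 to 6.77) and 3.43% of the flanks. CAGCTG, an E-box, was found in 12.7% (11.9 to 13.7) against 8.18% (7.67 to 8.73) of the flanks, and in windows with a GC content of at least 50% in 19.7% (17.9 to 21.6) against 15.5% (14.9 to 16.2) of the grid. AGGGGGC, the core of the CTCF motif, stood at 3.31% against 2.33% of the flanks, and in windows of at least 50% GC at 5.92% (4.92 to 7.1) against 5.54% of the grid. The AP-1 heptamers TGACTCA and TGAGTCA did not differ from the flanks beyond the intervals (2.80% and 2.91%), nor did GAGAGAGA (2.63% and 2.97%), TGTGTGTG (2.72% and 3.0%) or TTCAGCACC, part of the REST site (0.370% and 0.263%). GGGNGGGNG was found in 5.56% (4.97 to 6.22) and 4.86% (4.46 to 5.30), and at high GC in 9.64% against 10.2% of the grid. Windows of CGCGCG and GCNGCNGCN can overlap, and a match shows only that these letters are present.

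Whether repeated sequence took a larger share than on the grid depended on how a repeat was defined and on GC content. In 1327 of 5142 peaks (25.8%, 24.6 to 27.0) the median 24-mer of the 100 bp at the summit occurred more than once in the genome, against 18.2% (18.0 to 18.5) of the grid and 35.6% (34.2 to 36.9) of intergenic peaks. When any repeated 24-mer sufficed, the shares were 41.2% (39.9 to 42.5) and 39.6% (39.3 to 39.8), almost without a difference. By the median 24-mer a clear excess lay only below 40% GC, and from 40% to below 60% there was none. Below 40% GC, 32.1% of the peaks (28.8 to 35.6) were multi-copy against 11.3% of the grid, while from 40% to below 50% the shares were 26.0% and 26.5% and from 50% to below 60% they were 22.9% and 25%. From 60% upwards they were 23.6% (19.1 to 28.8) and 19% (17.0 to 21.2), with overlapping intervals. Multi-copy peaks had a PHF13 peak within 10 kb in 24.3% (22.1 to 26.7), single-copy peaks in 13.8% (12.7 to 14.9). Reads from copies of a repeat were placed at 1 of them by the aligner, so the position of a multi-copy peak is uncertain.

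The longest runs of gene-body peaks at close distance, singled out after the values had been seen, stood over a raised background. In TTC34, 8 peaks lay within 16.2 kb (chr1:2614194-2630363) with local backgrounds of 56.5 to 85.1 fragments and fold enrichments of only 1.61 to 2.07, and 6 of them were multi-copy. In FCGBP, which encodes a mucus protein, 7 peaks in 16.9 kb (chr19:40389065-40405973) had backgrounds of 72.3 to 88.4 fragments and fold enrichments of 1.58 to 2.13, and all 7 were multi-copy. By contrast the 4 peaks in 1.59 kb of SPEG (chr2:220348821-220350409), a kinase gene of striated muscle, were single-copy and 2 lay in coding exons. Their fold enrichments were nearly equal, from 2.44 to 2.53. The backgrounds, 15.6 to 15.9, were lower than in TTC34 and FCGBP but also above the gene-body median of 5.66. The part that DNA copy number plays in these backgrounds was not tested.

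Several features rose with peak strength, mostly in its top quintile. With peaks ordered by −log10 q and divided into quintiles, the share with a CpG ratio of at least 0.6 was 1.55%, 1.75%, 1.75% and 2.14% in the lower 4 and 8.75% (7.18 to 10.6) in the highest. Multi-copy sequence went from 22.1% to 24.4% over the lower 4 and stood at 36.0% (33.1 to 39.0) in the highest. Another EZH2 summit within 10 kb was found for 18.4%, 21.8%, 20.7%, 25.9% and 34.1% (31.3 to 37.1). The exonic share was between 4.47% and 5.64% in the lower 4 and 7.29% (5.85 to 9.04) in the highest. Among the 100 peaks of highest −log10 q, 25% (17.5 to 34.3) were CpG-rich, 56.0% (46.2 to 65.3) multi-copy and 64.0% (54.2 to 72.7) within 10 kb of another EZH2 summit, and 30.0% (21.9 to 39.6) lay within 5 Mb of a chromosome end, against 11.0% of all gene-body peaks and 6.19% of the grid. Over all gene-body peaks, the share near a chromosome end lay above that of the grid beyond the intervals in no GC class. Below 40% GC the shares were 3.47% and 3.42%, and from 40% to below 50% they were 7.09% and 6.59%. From 50% to below 60% they were 16.5% and 16.0%, and from 60% upwards 35.6% (30.3 to 41.3) and 43.1% (40.4 to 45.8). The 100 strongest peaks were not divided by GC class. Of the 164 CpG-rich peaks, 58 were also multi-copy.

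**Figure D3:**
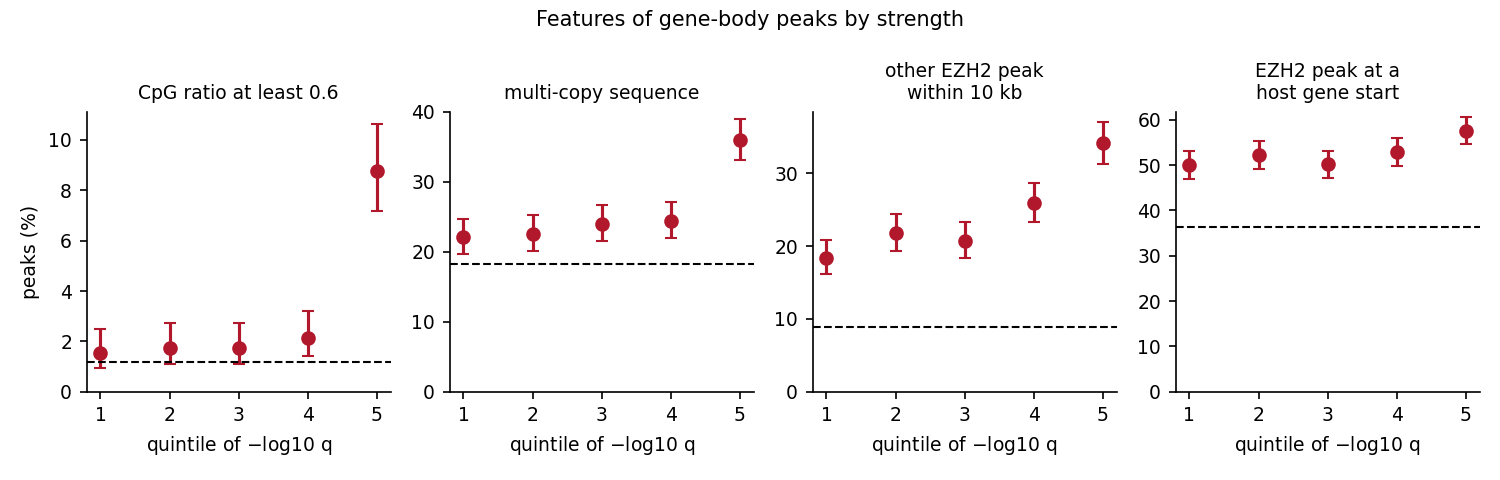
Share of gene-body peaks (y axis, %) with each of 4 features, by quintile of −log10 q from the weakest (1) to the strongest (5) on the x axis. Points are shares with 95% Wilson intervals and dashed lines are the shares on the position grid. The CpG-rich share stands at 8.75% in the strongest quintile and at most at 2.14% in the others.

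Gene-body peaks lay nearer to other EZH2 peaks than the grid did, but less near than the other narrow EZH2-only peaks. The median distance to the next EZH2 summit was 27.4 kb (26.1 to 28.7), against 92.8 kb on the grid, and 24.2% (23 to 25.4) had it within 10 kb, against 8.89%, a ratio of 2.72. For intergenic peaks these values were 21.8 kb (20.7 to 23) and 32.4% (31.1 to 33.7), and for peaks near gene starts 12 kb (11.3 to 12.9) and 46.8% (45.7 to 48). An EZH2 peak over 1000 bp wide lay within 50 kb of 11.2% (10.4 to 12.1), against 4.78% of the grid, although the median distance to such a peak was 397 kb. The PHF13 list came as near as 10 kb for 16.5% (15.5 to 17.5), against 9.94% of the grid, 20.3% (19.2 to 21.4) of intergenic peaks and 19.5% (18.7 to 20.4) of those near gene starts, although a shared base had been excluded by the rule. Single-copy peaks gave 23.2% (21.9 to 24.5) for another EZH2 summit within 10 kb, close to the value for all.

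Most of the peaks were in genes that also had EZH2 at the start. For 2705 peaks (52.6%, 51.2 to 54.0) an EZH2 summit lay within 5000 bp of a TSS of a gene over the peak, against 36.4% (36.1 to 36.7) of the grid, a ratio of 1.45, and for 22.0% (20.9 to 23.2) that peak was over 1000 bp wide, against 13.9%. The difference from the grid was present in each GC class. Below 40% GC the shares were 46.9% (43.3 to 50.6) and 34.2%, from 40% to below 50% they were 51.3% and 37.6%, from 50% to below 60% they were 56.9% and 43.3%, and from 60% upwards they were 56.2% (50.4 to 61.7) and 44.6%. It was also present in single-copy peaks, at 54.2% (52.6 to 55.8). Hosts of the protein-coding class gave 61.5% (59.9 to 63.1) and lncRNA hosts 32.3% (29.9 to 34.7), without a grid share for either class. All these peaks came from the same EZH2 library.

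Across genes the same relation held at every gene length. Of 13900 protein-coding genes with any sequence more than 5000 bp from a TSS, 2063 (14.8%) held at least 1 gene-body peak and 1650 (11.9%) a single-copy one. The share rose with length and was 1.22%, 5.00%, 10.5%, 18.7% and 38.7% over quintiles of that sequence length. With an EZH2 summit at the own start, 29.2% of genes (27.8 to 30.7) held a gene-body peak, without it 9.78% (9.22 to 10.4). In the longest quintile the shares were 54.5% (51.6 to 57.4) and 27.5% (25.4 to 29.7) and in the shortest 2.49% (1.46 to 4.21) and 0.93% (0.609 to 1.42). Per megabase the genes with EZH2 at the start held 5.92 gene-body peaks and the others 2.94. The plot by gene length shows the taller bar for genes with EZH2 at the start in all 5 classes, and no interval overlaps that of its neighbour.

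**Figure D4:**
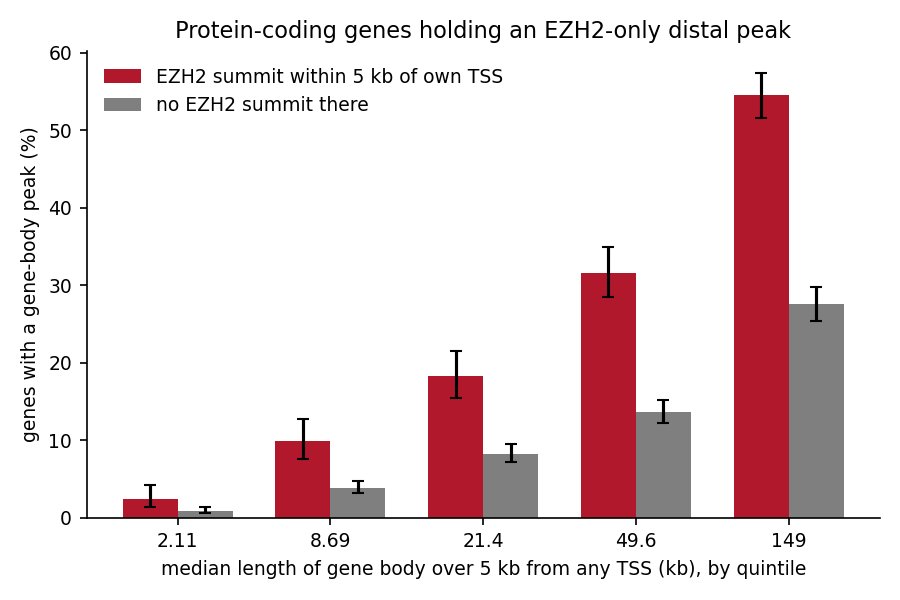
Share of protein-coding genes that hold at least 1 gene-body peak (y axis, %) by quintile of the gene sequence more than 5 kb from any TSS (x axis, median of the quintile in kb). Red bars are genes with an EZH2 summit within 5 kb of their own TSS, grey bars the others, with 95% Wilson intervals. In the longest quintile the shares are 54.5% and 27.5%.

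A few long genes held many peaks. While 1346 genes held a single peak, 717 held at least 2, 117 at least 5 and 14 at least 10. CAMTA1, a calmodulin-binding transcription activator, held 17 in 984 kb, with fold enrichments of 2.19 to 3.39. CDH4, which encodes R-cadherin, held 16 (1.98 to 3.51), all single-copy. PTPRN2, a phosphatase-like protein of secretory granules, held 15 (2.24 to 3.61), RBFOX3, the neuronal splicing factor known as NeuN, 14 (1.92 to 3.32) and GRIK4 13 (2.04 to 2.90). The peaks in these 5 genes were GC-rich, with medians per gene between 53.2% and 57.1%. Their local backgrounds ranged from 4.42 to 26.4 fragments, and 1 of the 75 peaks stood at the floor, against 23.6% of all gene-body peaks. CAMTA1, PTPRN2, RBFOX3 and GRIK4 had an EZH2 summit within 1000 bp of their own start, at 525, 909, 56 and 50 bp, while the nearest to a CDH4 start was 11577 bp away. In GRIK4 the strongest peak, in the coding exon shown above, held 64 fragments, and the other 12 were intronic with 23 to 45 fragments. In RBFOX3 the strongest peak (chr17:77345566-77346042) held 63 fragments, with a −log10 q of 12.5, and the weakest had a −log10 q of 1.32, just above the limit of the list.

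Per length of sequence more than 5000 bp from any TSS, the highest values came from genes with little such sequence. LHX5, a LIM homeobox gene with EZH2 784 bp from its start, held 3 peaks in 4838 bp more than 5000 bp from any TSS. Its peaks had 48, 54 and 69 fragments over backgrounds of 20.2 to 24. ARHGEF1, a guanine nucleotide exchange factor, and ERFL overlap on opposite strands, and the same 3 peaks (34, 38 and 43 fragments) were counted for both. KIR2DL1, an inhibitory receptor gene of natural killer cells, held 3 peaks with 50 to 59 fragments. None of these was single-copy (4 copies of the median 24-mer in each), and receptor genes of this family are near-identical, so the peaks cannot be placed in KIR2DL1 with certainty. SPEG followed with the 4 peaks described above.

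Gene lists were read beside the share of all protein-coding genes weighted to the length quintiles of the list, called the share at equal lengths. Within a quintile lengths were not matched further, and the longest ran from 78.7 to 2148 kb. The median number of peaks per gene was 0 in every list as in all genes. Of 41 collagen genes, 19 held a gene-body peak (46.3%, 32.1 to 61.3, beside 25.3% at equal lengths). Examples were COL23A1 (fold enrichment 3.13), COL6A6 (4.27) and COL19A1 (4.38), all intronic and single-copy. Potassium channels, which set the resting potential, gave 27 of 76 (35.5%, 25.7 to 46.7, beside 21.0%), led by KCNN3, KCNQ1 and KCNA2. Voltage-gated calcium and sodium channels gave 15 of 38 (39.5%, 25.6 to 55.3, beside 26.3%), among them the calcium channels CACNA1C (3.78, with 24-mers in 4 copies), CACNA1I (4.24) and CACNA1D (3.65). WNT ligands, receptors and antagonists gave 14 of 44 (31.8%, 20 to 46.6, beside 17.0%). The ligand gene WNT8B carried its peak in a coding exon (3.13, CpG ratio 0.796), WNT9B (3.87) and the R-spondin receptor LGR5 (3.89) in introns. Homeobox and other developmental transcription factors gave 25 of 80 (31.3%, 22.2 to 42.1, beside 19.6%), with LHX5, PBX3 (4.40, CpG ratio 1.06) and the zinc finger gene ZNF536 (3.14) as the strongest. EZH2 stood at the start of 24 of the 41 collagen genes, 52 of the 76 potassium channels, 22 of the 38 calcium and sodium channels, 31 of the 44 WNT genes and 56 of the 80 transcription factors, against 3619 of all 13900 genes.

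For the next 6 lists, as for the calcium and sodium channels above, the interval covered the share of all genes at equal lengths. Axon guidance genes gave 16 of 61 (26.2%, 16.8 to 38.4, beside 23.5%), with UNC5A, NTN1 and the netrin receptor NEO1 (3.91) as the strongest. EMT factors and cadherins gave 8 of 34 (23.5% beside 25.4%). In that list CDH23 (3.95) and CDH4 (3.17) had intronic peaks. ZEB2, a repressor of E-cadherin, had its summit in sequence annotated both as coding exon and as UTR. The CpG ratio there was 0.965 (chr2:145147234-145147400, 24 fragments over 6.02). Integrins, laminins and matrix proteases gave 13 of 68 (19.1% beside 19.2%), among them the metalloproteases ADAMTS17 (4.03, in 2-copy sequence), ADAMTS20 (4.06) and ADAMTS6 (3.87). TGF-beta ligands, receptors and SMADs gave 6 of 49 (12.2%, 5.73 to 24.2, beside 15.2%). Of these, the receptor genes ACVR1B (4.43) and TGFBR3 (3.19) had theirs in sequence of 225 and 1998 copies, and LTBP1, which binds latent TGF-beta, in single-copy sequence (3.58). PRC2 genes gave 2 of 12 (16.7%, 4.7 to 44.8, beside 20.3%), JARID2 (3.87) and EED (2.92), at 20 and 25 fragments. Pancreatic cancer drivers had the lowest value beside that share, with 3 of 32 (9.38%, 3.24 to 24.2, beside 20.4%), ACVR1B and the guidance receptor ROBO2 (3.69) among them.

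Zinc finger and ribosomal protein genes also had intervals that covered the share at equal lengths. Zinc finger genes of the kind clustered on chromosome 19 gave 10 of 190 (5.26%, 2.88 to 9.42, beside 7.19%), with ZNF790 (4.24), ZNF780B (1.98 over a background of 42.4) and ZNF568 (3.38) as the strongest. Ribosomal protein genes gave 1 of 18 (5.56%, 0.988 to 25.8, beside 3.67%), in RPL37A (fold enrichment 3.15). The list of poised genes that the study had drawn up from chromatin and expression data in PANC-1 gave 37 of 80 (46.3%, 35.7 to 57.1, beside 22.9%). It was chosen by the study in these cells and is no independent evidence, and 70 of the 80 had EZH2 at the start. The strongest examples there were the sorting receptor SORCS2 (3.03), the focal adhesion scaffold NEDD9 (4.03) and the synaptic scaffold SHANK2 (4.01). The plot of gene lists shows the interval clear of the all-gene share for collagens, poised genes, potassium channels, WNT genes and developmental transcription factors.

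**Figure D5:**
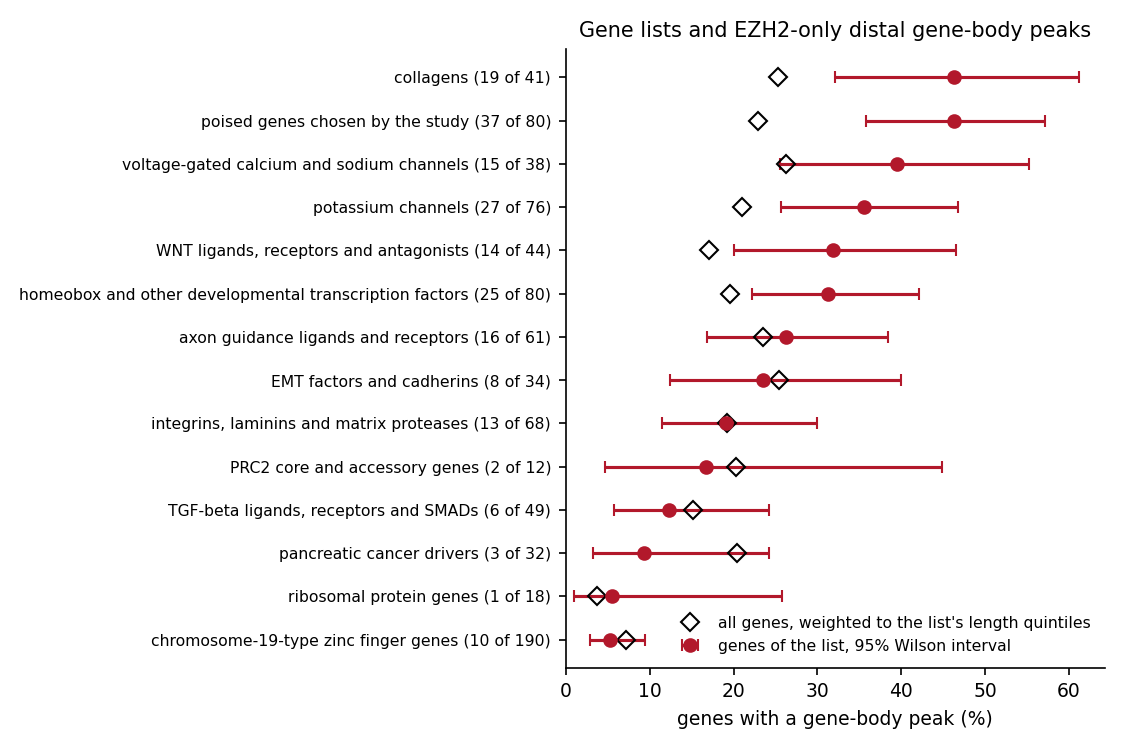
Share of each gene list with at least 1 gene-body peak (x axis, %; red points with 95% Wilson intervals, gene counts in the labels) and the share of all protein-coding genes weighted to the length quintiles of the list (open diamonds). Collagens and poised genes both stand at 46.3%, beside 25.3% and 22.9%.

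Chromosomes differed in the density of gene-body peaks. Over the genome 4.37 peaks fell on each megabase of gene body more than 5000 bp from a TSS. The highest values were 9.17 on chromosome 20 (7.97 to 10.5, exact Poisson interval), 8.76 on chromosome 19 (7.31 to 10.4) and 7.20 on chromosome 11 (6.49 to 7.97). The lowest autosomal values were 1.18 on chromosome 4 (0.958 to 1.45), 2.0 on chromosome 14 and 2.27 on chromosome 13, and chromosome X stood at 1.76. Much of this pattern was shared by intergenic peaks, at 4.40 per megabase of distal intergenic sequence including gaps. They gave 7.79, 10.7 and 8.42 on chromosomes 20, 19 and 11, and 1.69 and 2.10 on chromosomes 4 and X. On chromosome 21 the classes stood further apart, at 6.74 for gene-body and 3.45 for intergenic peaks. As a description over 22 autosomes from 1 library, density went with the median GC content of the grid (Spearman rank correlation 0.603, Pearson r 0.515), although chromosome 22, with a grid median of 46.4%, had only 3.36. The copy number of these chromosomes in PANC-1 was not analysed here.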

How the data were processed

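EZH2 and PHF13 were each profiled by ChIP-seq in 1 PANC-1 library with 1 input library as control. According to the methods and the submitters' processing notes, the authors trimmed reads with Trim Galore 0.4.1, aligned them to hg19 with Bowtie2 2.4.1, discarded duplicates (Picard) and called peaks against the input (MACS2 2.2.7.1). The deposited fold enrichment is a ratio of summit coverage to local background with a pseudocount of 1 on each. The deposited p and q values are on the −log10 scale. A score, which the authors' caller scales from −log10 q, was not used. For EZH2 the deposited format is that of narrow peaks, starting at a −log10 q of 1.31, whereas the methods describe broad ones.

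Fragments at the summit and local background were solved from fold enrichment and p within a relative error of 0.0001, for 100% of peaks. Total reads are unknown. Positions were annotated with GENCODE release 44 on GRCh37, a gene being a host when a transcript of it covered the summit. Copy number was the median genome count of the 24-mers in 100 bp at the summit. Scripts used Python 3.11.15, numpy 2.4.6, scipy 1.17.1 and numba 0.67.0, and were tested on simulated data. Without replicates no test was run. Named peaks are the 8 strongest single-copy ones, the 5 genes with most peaks and the 5 with most per length (at least 3 peaks), up to 3 genes per list, the strongest coding-exon and CpG-rich peaks, and those at the limits of the rule. The peaks and gene lists were chosen with earlier results of these data known. Alternatives changed the q limit, the TSS distance, the annotation, the PHF13 gap, the copy class and the windows. Results for some items are not reported here.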

Additional observations from a re-analysis of the deposited data

How the results depend on the processing

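No paired analysis was possible because each antibody had 1 library. Of 71 alternatives, 34 left a value within its interval or, for a count, within 1.5 times, and 37 moved it. The PHF13 criterion (no PHF13 peak within 1000 bp, or shared only when covered over 50% of its width) moved none of the 9 values. With a −log10 q of at least 3, 3044 peaks remained, with medians of 23 fragments and 47.6% GC, a CpG-rich share of 4.27%, 28.2% multi-copy, 26.8% within 10 kb of another EZH2 summit and 10.3% of genes holding a peak. With at least 5, 861 remained, with 29 fragments, 49.2% GC, 7.90% exonic, 9.77% CpG-rich, 37.1% multi-copy, 58.8% with EZH2 at the host start, 36.5% within 10 kb and 3.56% of genes. With a TSS distance over 10000 bp, the medians and shares were 20 fragments, 4.21% exonic, 2.44% CpG-rich, 24.1% multi-copy, 21.1% within 10 kb and 10.5% of genes (grid 3.15% exonic, 1.06% CpG-rich, 17.3% multi-copy and 7.48% within 10 kb). With protein-coding transcripts alone, they were 47.6% GC, 9.45% exonic, 3.86% CpG-rich, 23.04% multi-copy, 68.6% with EZH2 at the host start and 17.6% of genes. That set includes peaks near starts of non-coding transcripts. Such a peak can itself count as EZH2 at the start of its host, which raises the 68.6% by construction. No grid share is given for that set. Single-copy peaks alone gave 6.19% exonic, 54.2% with EZH2 at the host start and 11.9% of genes. Windows of 200 bp gave a median GC of 49.0% and 4.69% CpG-rich, and a CpG ratio of at least 0.6 with GC of at least 50% gave 2.55%. A limit of 50 kb in place of 10 kb gave 67.1% (grid 34.2%), an EZH2 summit within 1000 bp of the host start 39.9% (grid 28.2%), and any repeated 24-mer 41.2% multi-copy (grid 39.6%), so that the multi-copy excess nearly disappeared. The median summit of 21 fragments limits what single weak peaks can show, and without a second library no peak has a replicate check.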

Other observations

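Peaks in lncRNA hosts, 1482 in all, differed from those in protein-coding hosts mainly at the gene start. A wide EZH2 peak stood at the start of the host for 5.06% (4.06 to 6.30) of them, against 29.6% (28.1 to 31.1) in protein-coding hosts. A peak was placed in the lncRNA class only where no protein-coding gene covered it. No grid share is given by host class, so whether this contrast is particular to the peaks was not tested. Strength and composition were alike, with a median −log10 q of 3.27 (3.11 to 3.39) against 3.25 (3.17 to 3.34), a GC content of 46.6% (46.0 to 47.0) against 47.2% (47.0 to 47.6) and a CpG-rich share of 3.58% (2.75 to 4.65) against 3.0% (2.49 to 3.62). The following lncRNA genes were picked after their values had been seen. EMX2OS, transcribed opposite to the homeobox gene EMX2, held CpG-rich peaks of 49 and 38 fragments 652 bp apart, with CpG ratios of 0.803 and 0.760. LINC00261, a lncRNA gene of endoderm, held CpG-rich peaks of 27 and 22 fragments 503 bp apart, with ratios of 0.625 and 0.798.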
